A study of Mus musculus with 36 samples.

Results

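Histone genes encode the proteins around which DNA is wound. They were taken as every row of the authors' annotation table whose symbol begins with Hist1h, Hist2h, Hist3h or Hist4h, together with H1f0, H1fx, H2afx, H2afz, H2afv, H2afy, H3f3a and H3f3b. Pseudogene rows were left out (3 of the 78 rows that match by symbol), which gave 75 genes of the 53465 in the table. Of these, the 67 with a Hist symbol are treated as replication-dependent histone genes (6 for H1, 18 for H2A, 18 for H2B, 12 for H3 and 13 for H4). The 8 others are treated as variant histone genes. This split follows the names and was not checked gene by gene. The choice used symbols only and no measured value. The cells were RAW264.7, an established mouse macrophage-like line, and bulk RNA sequencing gave 36 libraries, 3 per group. The 12 groups were solvent alone, lipopolysaccharide (LPS, a component of the bacterial outer membrane that triggers inflammatory signalling) at 10 µg/mL, melatonin alone at 0.1 µM, 1 µM, 10 µM, 100 µM or 1 mM, and LPS together with melatonin at each of those doses. Where both agents were used, melatonin came 30 min before LPS, and cells were collected after 12 h. All groups are 1 cell line. Whether a group's 3 libraries stem from separate cultures is not in the labels, so the p-values rest on a spread that may be technical only.

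Replication-dependent histones are made in bulk while DNA is copied in S phase. Their genes lie in clusters, mostly lack introns, and give messenger RNAs that end in a short stem-loop, bound by the stem-loop binding protein, in place of a poly(A) tail. Variant histones are made throughout the cell cycle from dispersed, usually spliced genes with ordinary polyadenylated messages, and are deposited at particular sites: H3.3 (H3f3a, H3f3b) at active genes and regulatory regions, H2A.Z (H2afz, H2afv) around promoters, macroH2A1 (H2afy) in repressed chromatin, H2A.X (H2afx) as the form phosphorylated at DNA breaks, and H1.0 (H1f0) as a linker histone typical of slowly dividing or differentiated cells. H1fx encodes another linker histone.

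The stem-loop is shown first because it is the feature for which replication-dependent messages are known. It was searched for in the GENCODE M21 transcripts (build GRCm38, the same as mm10) as 16 bases that begin with GG, end with CC, pair over 6 positions and hold a loop of 4 bases beginning TTT. The capitals mark those 16 bases and the lower-case letters the 5 bases on either side.
Hist1h1c: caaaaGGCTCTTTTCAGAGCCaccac
Hist1h1d: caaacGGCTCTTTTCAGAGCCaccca
Hist1h2ao: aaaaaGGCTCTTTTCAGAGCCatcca
Hist1h3c: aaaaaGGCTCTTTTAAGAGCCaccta
Hist1h4i: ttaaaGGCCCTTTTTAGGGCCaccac
H2afx: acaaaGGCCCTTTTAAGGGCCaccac
The loop was present in the gene models of 44 of 67 replication-dependent genes and 1 of 8 variants, H2afx, against 0.305% of the other annotated genes. H2afx, unlike the other variants, is known to give both a stem-loop and a polyadenylated message. In 22 of the replication-dependent models the annotated transcript stopped within 100 bases after the loop, in 22 it ran on past it by more than that (840 bases for Hist1h1c, 4884 for Hist1h1d), and in 23 the model held no such loop.

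The genes also share promoter letters. RefSeq promoters (GRCm38.p6) matched 62 replication-dependent and 7 variant genes, and the 250 bases before each start were searched on both strands for strings of which none contains another. The CCAAT box (CCAAT) was found in 51 of 62 replication-dependent promoters (82.3%), against 34.5% of 27025 promoters of the same length, but in only 3 of 12 H4 promoters. The H4 promoters instead held GGTCCG in 9 of 12 cases (75%, against 6.82% of all promoters). AAACACA, the AC box of H1 genes, was in 5 of 6 H1 promoters (6.22% of all promoters). The octamer ATTTGCAT was in 7 of 18 H2A and 6 of 16 H2B promoters (1.61% of all promoters). The H1 and H4 genes with the highest mean CPM (counts scaled to the library total) and the variant with the highest are printed here because they show these 3 layouts, with every match to any of the searched strings in capitals. They are Hist1h1c (chr13:23738557-23738806, plus strand), Hist1h4i (chr13:22041363-22041612, minus strand) and H3f3b (chr11:116024505-116024754, minus strand).
Hist1h1c promoter: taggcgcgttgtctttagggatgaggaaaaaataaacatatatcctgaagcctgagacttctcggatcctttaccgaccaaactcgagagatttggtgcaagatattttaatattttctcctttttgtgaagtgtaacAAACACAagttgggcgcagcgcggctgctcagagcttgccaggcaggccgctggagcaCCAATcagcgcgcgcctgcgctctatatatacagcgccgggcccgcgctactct
Hist1h4i promoter: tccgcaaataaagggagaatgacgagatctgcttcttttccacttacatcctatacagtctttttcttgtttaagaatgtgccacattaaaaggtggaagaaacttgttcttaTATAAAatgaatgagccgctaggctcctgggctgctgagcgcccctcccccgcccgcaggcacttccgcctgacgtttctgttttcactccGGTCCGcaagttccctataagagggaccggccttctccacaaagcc
H3f3b promoter: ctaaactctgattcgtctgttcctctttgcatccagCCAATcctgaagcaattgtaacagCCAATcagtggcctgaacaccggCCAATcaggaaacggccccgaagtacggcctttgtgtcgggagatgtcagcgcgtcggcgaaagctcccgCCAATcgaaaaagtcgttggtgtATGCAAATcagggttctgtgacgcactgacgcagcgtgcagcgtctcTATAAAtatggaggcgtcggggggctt
Hist1h1c carries the AC box and 1 CCAAT box, and Hist1h4i the letters TATAAA and the H4 string. In Hist1h4i TATAAA lies near the middle of the window, far from the start, and is a match of letters only. H3f3b, a variant gene, holds CCAAT boxes, an octamer read on the opposite strand and TATAAA close to the start. TATAAA was in 29 of 62 replication-dependent promoters (46.8%) and in 13.0% of all promoters. The E2F strings TTTCCCGC and TTTGGCGC, also searched, were in 1 and 0 of the 62 (0.929% and 0.437% of all promoters). Of the 7 variant promoters, 4 held CCAAT, 2 GGTCCG, 1 AAACACA, 1 the octamer and 1 TATAAA, and 0 held either E2F string. A match describes the letters in this window and is not evidence of binding.

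Between 4203313 and 7590271 reads were counted per library, so that 3 counts, the level a count of 0 still allows, correspond to 0.395 to 0.714 CPM in 1 library. Such floors cover counting error only. Of the 10 macrophage markers examined, 9 had counts in all 36 libraries, and Mrc1 in 15. The summed level of the 6 epithelial markers reached at most 5.11 CPM, that of the 6 lymphocyte markers 1.36 CPM, the 6 fibroblast markers 9.94 CPM and the 5 endothelial markers 9.86 CPM, in any library. Labels of 2 libraries are in doubt: replicate 3 of melatonin at 1 mM lay close to the other libraries of the 1 µM group, and replicate 1 of melatonin at 1 µM close to the other libraries of the 1 mM group. The level of H3f3b was 1158, 1103 and 741 CPM in replicates 1 to 3 at 1 mM and 1045, 741 and 743 CPM at 1 µM. The summed DNA replication genes were at 1137, 1206 and 2153 CPM at 1 mM and 1222, 2237 and 2148 CPM at 1 µM. The labels were kept, and results that rest on these libraries are given with and without them. A further library, replicate 3 of LPS with 1 mM melatonin, differed most from its own group and had the lowest count total. It is included in every result for that group unless its removal is stated.

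Counts were found for 68 of the 75 genes, and 60 (53 replication-dependent, 7 variant) passed the filter on low counts and were tested. For 7 genes every library had 0 counts, which allows up to 0.0128 CPM over all libraries: Hist1h2aa, Hist2h2aa1, Hist2h2aa2, Hist2h2ab, Hist2h2bb, Hist2h3b and Hist2h3c1. For 5 of these 7 (all but Hist1h2aa and Hist2h2ab) no stretch of 50 bases in the transcript is unique among annotated transcripts, so reads from them could not be assigned to 1 gene by sequence. The other 8 genes that were not tested had too few counts. Sequence sharing affects the whole group: the median replication-dependent gene had 46.0% unique 50-base stretches, and 34 of 67 had less than 50%. Hist1h2ao and Hist1h2ap had 6.50% and 6.93%, and their counts are best read together. How the authors counted reads that map to several genes is not given in the sources used here. In addition, 24 replication-dependent and 5 variant genes overlap another annotated gene, and without a stated strand setting their reads cannot be told apart from those of the overlapping gene. H1fx had 4 counts in all and was not tested. Per length, the most abundant histone message in solvent was that of H3f3b (mean 269 FPKM, a level scaled by gene length and library size), followed by H2afv (211 FPKM), H2afx (176 FPKM) and Hist1h2ao (149.9 FPKM).

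LPS against solvent shows how histone messages respond to the inflammatory stimulus. With LPS, histone messages were lower: 18 of 60 tested genes fell and 0 rose (edgeR quasi-likelihood test, Benjamini-Hochberg adjusted p under 0.05), while 8.09% of all 16988 genes tested fell and 8.4% rose. At an unadjusted p under 0.05, 31 were lower and 0 higher, and DESeq2 called 21 lower and 0 higher. For counts at an unadjusted p or from DESeq2, here and below, no share of all genes is given. Such counts therefore do not show whether histone genes differ from other genes. Of the replication-dependent genes, 14 of 53 fell, with a median log2 fold change of -3.17 (-2.56 when the 10 genes at 0 counts in a group were set to their bound), and of the variants 4 of 7 fell, with a median of -0.78. The median over all genes was -0.02. The filter on low counts ran over all groups, so genes with few counts could enter through libraries without LPS. Such genes could hardly show a rise with LPS. Hist2h2ac, for instance, was tested with counts in 7 libraries, none of them with LPS. How far this lowers the replication-dependent median was not tested. The difference between replication-dependent and variant genes was not tested either.

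Summed over the 67 replication-dependent genes, the level was 745, 745 and 869 CPM in the solvent libraries and 149, 154 and 137 CPM with LPS. The groups lie far apart, and the mean with LPS was 18.7% of that in solvent. The 8 variants together were at 2163, 2098 and 2039 CPM in solvent and 1238, 1119 and 1147 CPM with LPS, which is 55.6% of the solvent mean. The replication-dependent share of all histone counts was accordingly 27.2% ± 2.32 (SD, n = 3) in solvent and 11.2% ± 0.792 with LPS. Fewer cells in S phase and less histone RNA per cell cannot be told apart in bulk RNA.

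**Figure D1:**
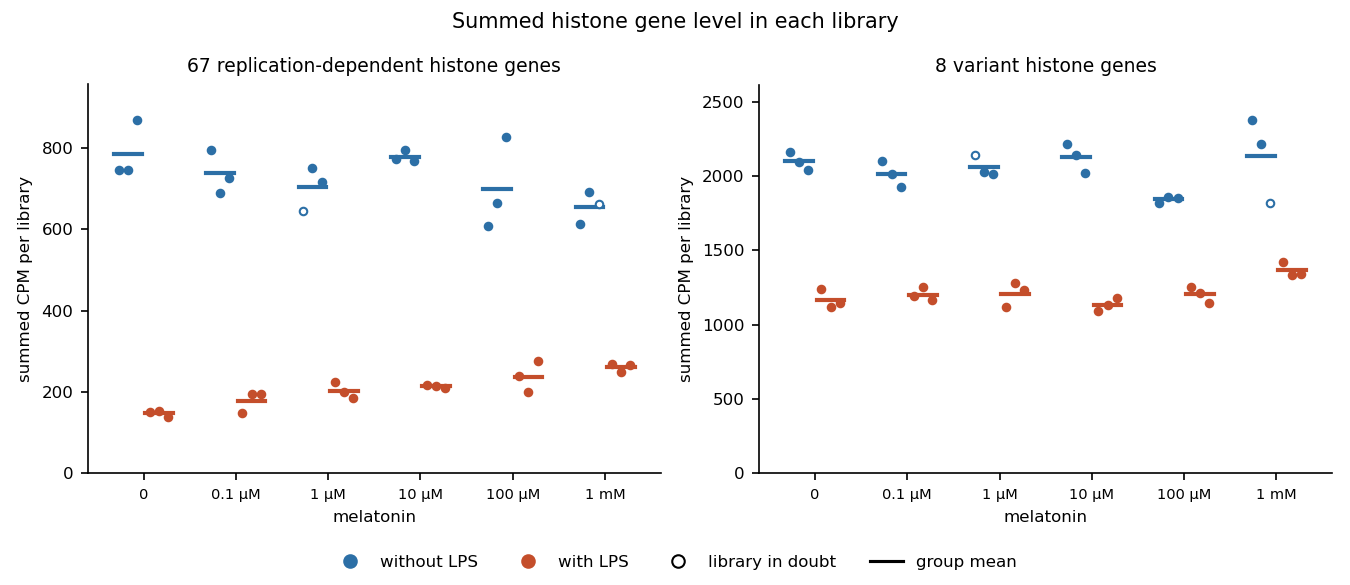
Summed CPM (vertical axis, from 0) of the 67 replication-dependent genes (left) and the 8 variant genes (right) in each of the 36 libraries, by melatonin dose; points are libraries, lines are group means, and open circles are the 2 libraries in doubt. Replication-dependent sums lie between 607 and 869 CPM without LPS and between 137 and 275 CPM with LPS, and variant sums between 1820 and 2380 CPM and between 1090 and 1420 CPM.

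Of the linker histones, all 5 tested replication-dependent H1 genes fell. Hist1h1c (H1.2, chromosome 13, 23738808 to 23740367, mm10, a single-exon gene) was at 124, 143 and 155 CPM in solvent and 33.6, 38.5 and 35.3 CPM with LPS. No LPS library came near a solvent library, and the log2 fold change was -1.97 ± 0.23 (SE, adjusted p = 7.29e-09). Hist1h1d (H1.3, chromosome 13, 23553262 to 23560686) was at 28.7, 19.0 and 24.5 CPM in solvent and 1.36, 0 and 1.54 CPM with LPS, and changed by -4.62 ± 0.69 on the log2 scale (adjusted p = 1.48e-06). Hist1h1a (H1.1) went from 8.65, 7.69 and 14.2 CPM to 0, 0.291 and 0.154 CPM. With 3 counts in the LPS group its fold is not given, though its test passed (adjusted p = 0.00120). The other 2, named after their values were seen, were Hist1h1b (H1.5), which fell by 4.196 ± 0.59 on the log2 scale, and Hist1h1e (H1.4), which fell by 2.13 ± 0.22. The calls of all 5 were kept under every one of the 13 alternative settings, the removal of each library included.

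Among the core histones, 4 of 13 tested H2A genes fell. Of these, Hist1h2ao, Hist1h2ap and Hist1h2ag (21.1% unique 50-base stretches) share sequence mainly with each other, so their calls are not independent. The pair Hist1h2ao and Hist1h2ap, whose reads can hardly be told apart, held most of the H2A signal. Hist1h2ao (chromosome 13, 21810465 to 21810944) was at 79.9, 70.0 and 69.3 CPM in solvent and 4.70, 4.65 and 5.24 CPM with LPS, and changed by -3.90 ± 0.35 on the log2 scale (adjusted p = 6.35e-12). Hist1h2ap changed by -4.06 ± 0.38. The groups of neither gene overlap. Hist1h2ag also fell (-3.67 ± 0.76), and Hist1h2ab did with few reads: 0, 8.16 and 1.5 CPM in solvent against 0 counts in all LPS libraries, at least 21.4-fold lower. Its groups overlap, because solvent replicate 1 is at 0, and its call was lost without solvent replicate 2 or any LPS library (adjusted p from 0.0634 to 0.115).

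For H2B 1 of 14 tested genes fell, Hist2h2be (-2.70 ± 0.59), a gene on chromosome 3. That is 7.14%, near the 8.09% of all genes tested. The H2B gene with the highest mean CPM over all libraries, Hist1h2bc (chromosome 13, 23684199 to 23692908, with 2 exons), was at 16.6, 28.1 and 15.4 CPM in solvent and 17.9, 8.00 and 9.09 CPM with LPS. Here the groups overlap and the change of -0.78 ± 0.41 did not pass (adjusted p = 0.212). H3 messages were sparse, and 3 of 10 tested genes fell. Hist1h3c (chromosome 13, 23744973 to 23745602) was at 28.2, 8.63 and 36.7 CPM in solvent and 0, 3.05 and 0 CPM with LPS, and changed by -4.55 ± 1.31 on the log2 scale (adjusted p = 0.0107). Hist1h3i was at 0.848, 2.04 and 9.13 CPM in solvent and at 0 counts with LPS, at least 26.7-fold lower (adjusted p = 0.0129). Hist2h3c2 was at 5.09, 4.39 and 4.04 CPM against 0, 0 and 0.308 CPM (adjusted p = 0.0322). In these H3 genes every solvent library lay above every LPS library.

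Of 11 tested H4 genes 1 fell, or 9.09%, which is also near the share of all genes (8.09%). This was Hist1h4i (chromosome 13, 22040636 to 22041362), at 13.9, 11.0 and 20.5 CPM in solvent and 2.12, 9.02 and 0 CPM with LPS (-2.02 ± 0.70, adjusted p = 0.0397). The H3 and H4 calls, like that of Hist1h2ab, were lost under some alternatives. Fitted on the 2 groups alone, Hist1h4i did not pass (0.118). Leaving out LPS replicate 1 ended those of Hist1h3c (adjusted p = 0.0587), Hist2h3c2 (0.128) and Hist1h4i (0.165), and leaving out LPS replicate 3 those of Hist1h3c (0.0585), Hist1h3i (0.0501) and Hist1h4i (0.176). Without LPS replicate 2, Hist1h3i (0.0511) and Hist2h3c2 (0.129) did not pass. Among the solvent libraries, removing replicate 1 ended the calls of Hist2h3c2 (0.0563) and Hist1h4i (0.0598), replicate 2 that of Hist2h3c2 (0.0508), and replicate 3 those of Hist1h3i (0.0611) and Hist1h4i (0.137). These p-values are edgeR's, adjusted over all genes tested.

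The variants did not move as one. H2afv (H2A.Z.2, chromosome 11, 6427229 to 6444443) was at 418, 326 and 306 CPM in solvent and 67.9, 61.9 and 65.9 CPM with LPS, and fell by 2.42 ± 0.25 on the log2 scale (adjusted p = 3.97e-10). Its paralogue H2afz (H2A.Z.1, chromosome 3, 137864487 to 137866922) was at 175, 189 and 163 CPM against 132, 104 and 70.1 CPM, a smaller change of -0.78 ± 0.18 (adjusted p = 0.00149). Both pairs of groups are separate. H2afx (chromosome 9, 44334694 to 44336077) went from 282, 255 and 204 CPM to 50.3, 40.7 and 63.3 CPM (-2.26 ± 0.24, adjusted p = 7.00e-10). H1f0 (chromosome 15, 79028450 to 79030504) went from 208, 218 and 280 CPM to 74.6, 77.8 and 73.6 CPM (-1.64 ± 0.16, adjusted p = 9.26e-11). The fold change of H2afx, the variant that carries the stem-loop, was in the range of the replication-dependent H1 genes, and so was that of H2afv, which carries none.

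H3f3b, H2afy and H3f3a did not pass the test. H3f3b (chromosome 11, 116021912 to 116027962) was at 803, 816 and 815 CPM in solvent and 666, 605 and 642 CPM with LPS. Its groups do not overlap, but the change of -0.35 ± 0.13 narrowly missed the threshold (adjusted p = 0.0516). It passed without the 2 libraries in doubt (-0.35 ± 0.09, adjusted p = 0.00469), which lie outside this comparison but enter the shared estimate of the spread, and with DESeq2 (adjusted p = 0.0174). H2afy (chromosome 13, 56073619 to 56136361) was at 277, 287 and 263 CPM against 243, 224 and 229 CPM (-0.25 ± 0.12, adjusted p = 0.173). H3f3a (chromosome 1, 180800832 to 180813943), the second H3.3 gene, was counted at only 1.53, 6.90 and 6.58 CPM in solvent and 3.64, 5.82 and 2.77 CPM with LPS, with overlapping groups (-0.30 ± 1.04, adjusted p = 0.911). Its SE leaves the size of its change undetermined.

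The LPS response was measured 5 more times, once at each melatonin dose, by comparing LPS with melatonin against the same dose of melatonin alone. These comparisons share no library with each other or with LPS against solvent. Again 0 histone genes rose in any. The number that fell was 17 with 0.1 µM (7.71% of all genes tested fell and 7.95% rose), 17 with 1 µM (7.4% and 7.98%), 15 with 10 µM (7.65% and 8.44%), 15 with 100 µM (7.72% and 9.06%) and 12 with 1 mM (4.75% and 4.87%). At an unadjusted p under 0.05, 1 gene was higher at 10 µM and 0 at the other doses, and DESeq2 called 0 higher at each dose. Without replicate 2 of LPS with 100 µM melatonin the count at 100 µM was 9, and without replicate 1 of LPS with 1 µM melatonin the count at 1 µM was 11.

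In all 6 comparisons 9 histone genes fell, against 2.08% of all genes. They were the replication-dependent Hist1h1b, Hist1h1c, Hist1h1e, Hist1h2ag, Hist1h2ao and Hist1h2ap and the variants H1f0, H2afv and H2afx. The H2A genes Hist1h2ag, Hist1h2ao and Hist1h2ap share much of their sequence and are not independent. For each of these 9, all 18 libraries without LPS were above all 18 with LPS (1.74% of all genes tested). The 9 were chosen from these same libraries, so the separation describes them and adds nothing to the calls. Hist1h2ao ranged from 31.7 to 113 CPM without LPS (median 78.5) and from 4.65 to 11.8 CPM with it (median 7.61). For H2afv the corresponding ranges were 263 to 418 CPM and 36.9 to 140 CPM. For 7 of the 9 the call was kept in all 6 comparisons under every alternative run, the exceptions being Hist1h2ag and Hist1h1c. Hist1h2ag at 1 mM (adjusted p = 0.0386) did not pass without replicate 2 (0.0523) or 3 (0.247) of melatonin alone, without any replicate of LPS with melatonin (0.106 to 0.122), without the 2 libraries in doubt (0.226), without the filter on low counts (0.0769), or on the compared groups alone (0.148). It was kept in 4 of 13 alternatives. Hist1h1c at 100 µM (0.0410) did not pass without replicate 2 (0.0663) or 3 (0.180) of melatonin alone or replicate 1 (0.0943) or 2 (0.180) of LPS with melatonin. In at least 1 of the 6 comparisons 27 of 60 genes fell (16.2% of all genes), and 33 fell in none. H2afy and H3f3a are the 2 variants that fell in none, whereas H3f3b fell with 1 µM (-0.46 ± 0.13), with 10 µM (-0.72 ± 0.13) and with 1 mM (-0.51 ± 0.13). The 1 mM comparison holds a library in doubt, and so does the 1 µM comparison, where H3f3b did not pass without the 2 libraries in doubt (-0.28 ± 0.10, adjusted p = 0.0708), without replicate 1 of melatonin alone (0.176) or of LPS with melatonin (0.0624), or on the compared groups alone (0.0563). At 1 mM its call ended without replicate 1 of melatonin alone (-0.39 ± 0.14, 0.0763) and on the compared groups alone (-0.50 ± 0.22, 0.251).

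**Figure D2:**
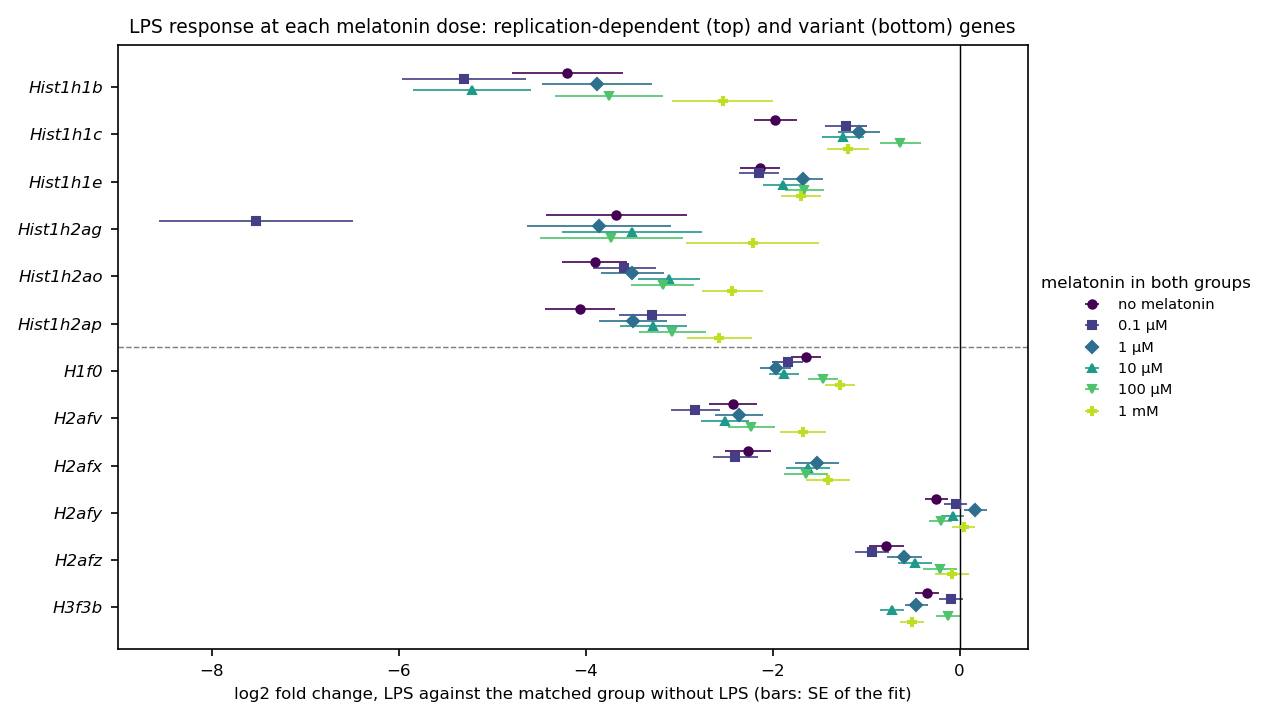
Log2 fold change with LPS (horizontal axis, bars are the SE of the edgeR fit) for the 6 replication-dependent genes that fell in all 6 comparisons (above the dashed line) and 6 variants (below it); each symbol is 1 melatonin dose present in both groups, 3 libraries against 3. Values for H1f0, H2afv and H2afx lie between -2.83 and -1.28, while those for H2afy and H3f3b lie between -0.72 and 0.17.

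The histone classes were compared by their sums, with no test between classes. With LPS the summed level, as a share of solvent, was 19.3% for H1, 9.34% for H2A, 35.3% for H2B, 8.42% for H3 and 30.8% for H4. The classes hold different numbers of well-counted genes: the H1 sum rests on 5 and the H2A sum mainly on Hist1h2ao and Hist1h2ap. Sorted by gene model, the replication-dependent genes whose transcript ends at the stem-loop were at 198 ± 14.6 CPM in solvent and 14.8 ± 3.55 CPM with LPS (7.47% of solvent, n = 3 each). Those whose model runs on past the loop were at 441 ± 22.9 and 104 ± 1.05 CPM (23.6%). Those with no loop in the model were at 148 ± 44.5 and 28.0 ± 12.2 CPM (18.9%). The genes that fell numbered 5 of 17, 5 of 19 and 4 of 17 in turn. The first of these sums rests mainly on Hist1h2ao and Hist1h2ap, and the second mainly on Hist1h1c and Hist1h1e. They therefore largely repeat the H2A and H1 values above and cannot be read as an effect of the kind of gene model. Whether the 3 kinds differ was not tested.

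**Figure D3:**
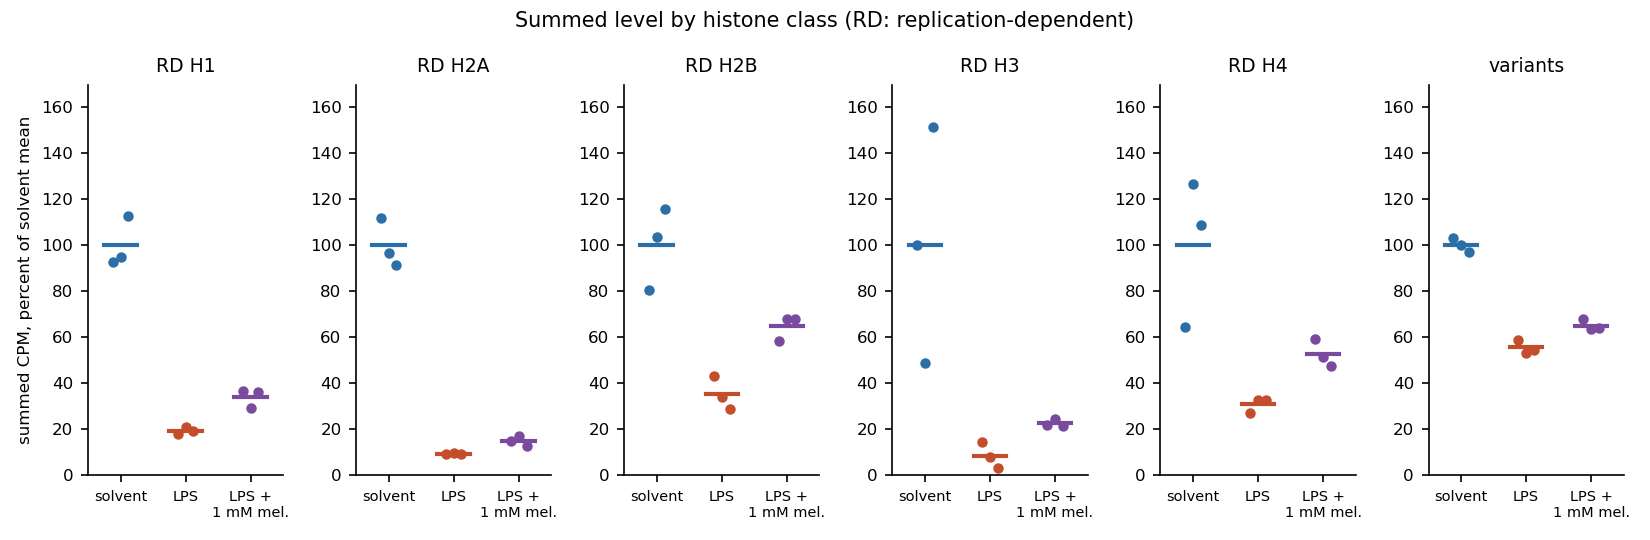
Summed CPM of each histone class in the solvent, LPS and LPS with 1 mM melatonin libraries, as a percentage of the solvent mean (vertical axis, from 0); points are libraries (3 per group) and lines are means. In every class the LPS libraries lie below all solvent libraries, and the means for LPS with 1 mM melatonin lie between them, from 14.8% for H2A to 65.1% for the variants.

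Messages without a poly(A) tail depend on how RNA was selected for sequencing, which the sources do not state. Small nuclear RNAs and similar transcripts without a tail that are not histones were therefore measured beside them. A list of such RNAs (Rn7sk, Rnu12 and others) summed to 54.7 ± 10.1 CPM in solvent and 30.0 ± 13.3 CPM with LPS (55.0%), while all genes of biotype snRNA were at 107% of solvent with LPS and those of biotype rRNA at 74.2%. Of the 9 tested RNAs in the list, 0 passed the edgeR test in LPS against solvent (2 at an unadjusted p under 0.05). The sum also varied without LPS, with group means from 18.9 to 54.7 CPM, and was at 28.6% of solvent in LPS with 1 mM melatonin. Their part in the histone result was not tested.

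Melatonin alone was compared with solvent at 5 doses, all against the same 3 solvent libraries. No histone gene passed the edgeR test at any dose, nor with DESeq2. The share of all genes that passed in either direction was 0.418% for 1 mM, 0.0824% for 100 µM and again for 10 µM, 0.147% for 1 µM and 0.341% for 0.1 µM. Genes with an unadjusted p under 0.05 numbered 7 for 1 mM (1 higher, 6 lower), 1 for 100 µM, 0 for 10 µM, 2 for 1 µM and 1 for 0.1 µM. Replication-dependent sums were, from the highest dose to the lowest, at 83.4%, 88.9%, 99.1%, 89.5% and 93.8% of solvent.

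The 1 mM result rests on a library in doubt. Hist1h2ao was at 31.7, 40.5 and 86.5 CPM at 1 mM, against 79.9, 70.0 and 69.3 CPM in solvent, so that 2 libraries lie below all solvent libraries and the third, the one in doubt, above all of them. Its log2 fold change was -0.47 ± 0.30 (adjusted p = 0.589). Without the 2 libraries in doubt it was -1.02 ± 0.27 (adjusted p = 0.0226), and H3f3b, at 1158 and 1103 CPM in the remaining 2 libraries, was higher than solvent by 0.48 ± 0.10 (adjusted p = 0.00281). For both genes the removed 1 mM library lay on the other side of solvent from the 2 kept. The level of H3f3b is also among those by which the doubt was described. These p-values depend on that removal and are not independent support for a change. With all libraries the change of H3f3b was 0.30 ± 0.13 (adjusted p = 0.398). At this dose the other H3 gene with many reads in solvent, Hist1h3c, was at 0.691, 5.92 and 2.30 CPM, all below the solvent libraries, but its change of -3.04 ± 1.20 did not pass (adjusted p = 0.372).

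LPS with melatonin was then compared with LPS alone, to see whether melatonin altered histone messages in stimulated cells. The 5 doses share the same 3 LPS libraries, which also enter LPS against solvent. At 1 mM, 5 of 60 histone genes rose and 0 fell (2.84% of all genes rose and 4.71% fell). At an unadjusted p under 0.05, 16 were higher and 1 lower, and DESeq2 called 6 higher and 0 lower, with no share of all genes given for either count. With 100 µM 2 rose (0.636% of all genes rose and 0.547% fell), with 10 µM 0 (0.194% and 0.177%), with 1 µM 1 (0.294% and 0.318%) and with 0.1 µM 1 (0.653% and 0.706%), and 0 fell with any of these doses. At 10 µM, 10 genes were higher and 2 lower at an unadjusted p under 0.05, and DESeq2 called 1 higher. At that level 7 genes were higher and 3 lower with 100 µM, 6 higher and 7 lower with 1 µM, and 5 higher and 10 lower with 0.1 µM. Median log2 fold changes of the replication-dependent genes were, from the highest dose to the lowest, 1.05, 0.26, 0.67, 0.08 and 0, beside a median over all genes of 0.02 with 1 mM. With genes at 0 counts in a group set to their bound, and those at or under 3 counts in both groups left out, these medians were 1.00, 0.44, 0.72, 0.48 and 0.11.

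Summed over the replication-dependent genes, the level with LPS was 147 ± 8.63 CPM without melatonin and, from the lowest melatonin dose to the highest, 179 ± 27.4, 203 ± 19.8, 214 ± 4.95, 237 ± 37.8 and 261 ± 10.8 CPM (SD, n = 3). At 0.1 µM and 1 µM most of the rise lay in Hist1h1c. That gene was at 33.6, 38.5 and 35.3 CPM with LPS, 45.4, 93.2 and 71.7 CPM at 0.1 µM and 76.0, 79.9 and 75.1 CPM at 1 µM. At an unadjusted edgeR p under 0.05, 5 replication-dependent genes were higher and 8 lower at 0.1 µM, 5 and 5 at 1 µM, and 13 and 1 at 1 mM. An order of the sums by dose was not tested. At 1 mM the 3 libraries, at 268, 249 and 266 CPM, were all above the 3 LPS libraries and all below the lowest solvent library. The mean there was 1.78 times that of LPS alone and 33.2% of that in solvent. The variants summed to 1.17 times LPS alone at 1 mM, and to between 0.973 and 1.04 times at the lower doses.

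Hist1h1c, the H1.2 gene, rose at 4 of the 5 doses. With LPS it was at 33.6, 38.5 and 35.3 CPM without melatonin, 45.4, 93.2 and 71.7 CPM at 0.1 µM, 76.0, 79.9 and 75.1 CPM at 1 µM, 60.8, 47.4 and 78.8 CPM at 10 µM, 90.6, 77.4 and 104.9 CPM at 100 µM, and 104.9, 58.8 and 80.5 CPM at 1 mM. Every library with melatonin was above every LPS library, and no order by dose is visible. Its log2 fold changes were 0.97 ± 0.23 at 0.1 µM (adjusted p = 0.0189), 1.10 ± 0.23 at 1 µM (0.00756), 0.80 ± 0.23 at 10 µM (0.129, not passed, but 0.0451 without the 2 libraries in doubt), 1.34 ± 0.23 at 100 µM (0.000396) and 1.18 ± 0.23 at 1 mM (0.000369). At 0.1 µM the call was lost without LPS replicate 1 (adjusted p = 0.0799), LPS replicate 3 (0.0828) or replicate 2 of that dose (0.238), and at 1 mM it was kept under all 13 alternatives.

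Hist1h1d, the H1.3 gene, was at 1.36, 0 and 1.54 CPM with LPS and at 3.37, 4.17 and 7.18 CPM with LPS and 1 mM melatonin, which do not overlap. It rose by a log2 fold change of 2.32 ± 0.68 (adjusted p = 0.0241). At 100 µM, with 3.07, 8.67 and 10.8 CPM, it rose by 2.94 ± 0.67 (0.0129). The other doses gave 2.58 ± 0.67 at 10 µM (0.0806), 2.19 ± 0.67 at 1 µM (0.1299) and 2.10 ± 0.68 at 0.1 µM (0.121). LPS replicate 2, where the gene had no count, weighs on these values: without it the change was 1.73 ± 0.68 at 1 mM (0.146) and 2.35 ± 0.68 at 100 µM (0.10). The call also ended without replicate 3 of LPS with 1 mM melatonin (0.119) and, at 100 µM, without replicate 3 of that dose (0.0781). Fitted on the compared groups alone it passed at neither dose (0.316 at 1 mM, 0.127 at 100 µM).

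The core histone genes Hist1h2bc and Hist1h4i and the variant H2afz also passed at 1 mM. Differences between doses were tested for 1 mM against 0.1 µM alone. There Hist1h2bc passed, H2afz did not (0.33 ± 0.18, adjusted p = 0.3155), and Hist1h4i did not (1.68 ± 0.68, 0.138) except without the filter on low counts (0.0256) or on the 2 groups alone (0.047). Hist1h2bc was at 17.9, 8.00 and 9.09 CPM with LPS and 25.4, 37.8 and 33.7 CPM with LPS and 1 mM melatonin, all above (1.47 ± 0.42, adjusted p = 0.0191), and it was also above its level in solvent (16.6, 28.1 and 15.4 CPM) in 2 of the 3 libraries. Hist1h4i went from 2.12, 9.02 and 0 CPM to 24.2, 18 and 13.4 CPM (2.31 ± 0.70, adjusted p = 0.0326). H2afz went from 132, 104 and 70.1 CPM to 150.3, 141 and 201 CPM (0.68 ± 0.18, adjusted p = 0.0132), also without overlap. All 3 calls were lost under some alternatives. Hist1h2bc did not pass without LPS replicate 2 (0.124) or 3 (0.113) or without replicate 2 (0.0753) or 3 (0.0528) of LPS with 1 mM melatonin. Hist1h4i did not pass without LPS replicate 1 (0.154) or 3 (0.152) or without replicate 1 (0.0994) or 2 (0.0524) of the 1 mM group, or on the compared groups alone (0.178). H2afz did not pass without LPS replicate 3 (0.183) or replicate 3 of the 1 mM group (0.119), or on the compared groups alone (0.155). These are adjusted p-values from edgeR.

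Without the 2 libraries in doubt, neither of which belongs to this comparison, the same fit called 8 histone genes higher at 1 mM. Those gained were Hist1h2ao (1.01 ± 0.27, adjusted p = 0.0111), Hist1h2ap (1.06 ± 0.32, 0.0266) and H1f0 (0.48 ± 0.14, 0.0186). With all 36 libraries Hist1h2ao, at 4.70, 4.65 and 5.24 CPM with LPS and 9.49, 11.8 and 7.97 CPM with 1 mM melatonin, did not pass although its groups are separate (1.01 ± 0.35, 0.0653). H2afv was at 117, 140 and 36.9 CPM at 1 mM, with replicate 3 below all LPS libraries, and its change was 0.59 ± 0.24 (0.154). Without that replicate, which had the lowest count total of all 36 libraries, it was 0.98 ± 0.19 (0.00034). Without LPS replicate 2, where it was highest among the LPS libraries, Hist1h1b passed (2.98 ± 0.69, 0.00372). For H2afv and Hist1h1b the removed library was the one that went against a rise. Both results show dependence on 1 library and are not further calls. H3f3b (0.14 ± 0.13), H2afx (0.33 ± 0.24), H2afy (-0.03 ± 0.12) and H3f3a (0.36 ± 1.04) did not pass.

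**Figure D4:**
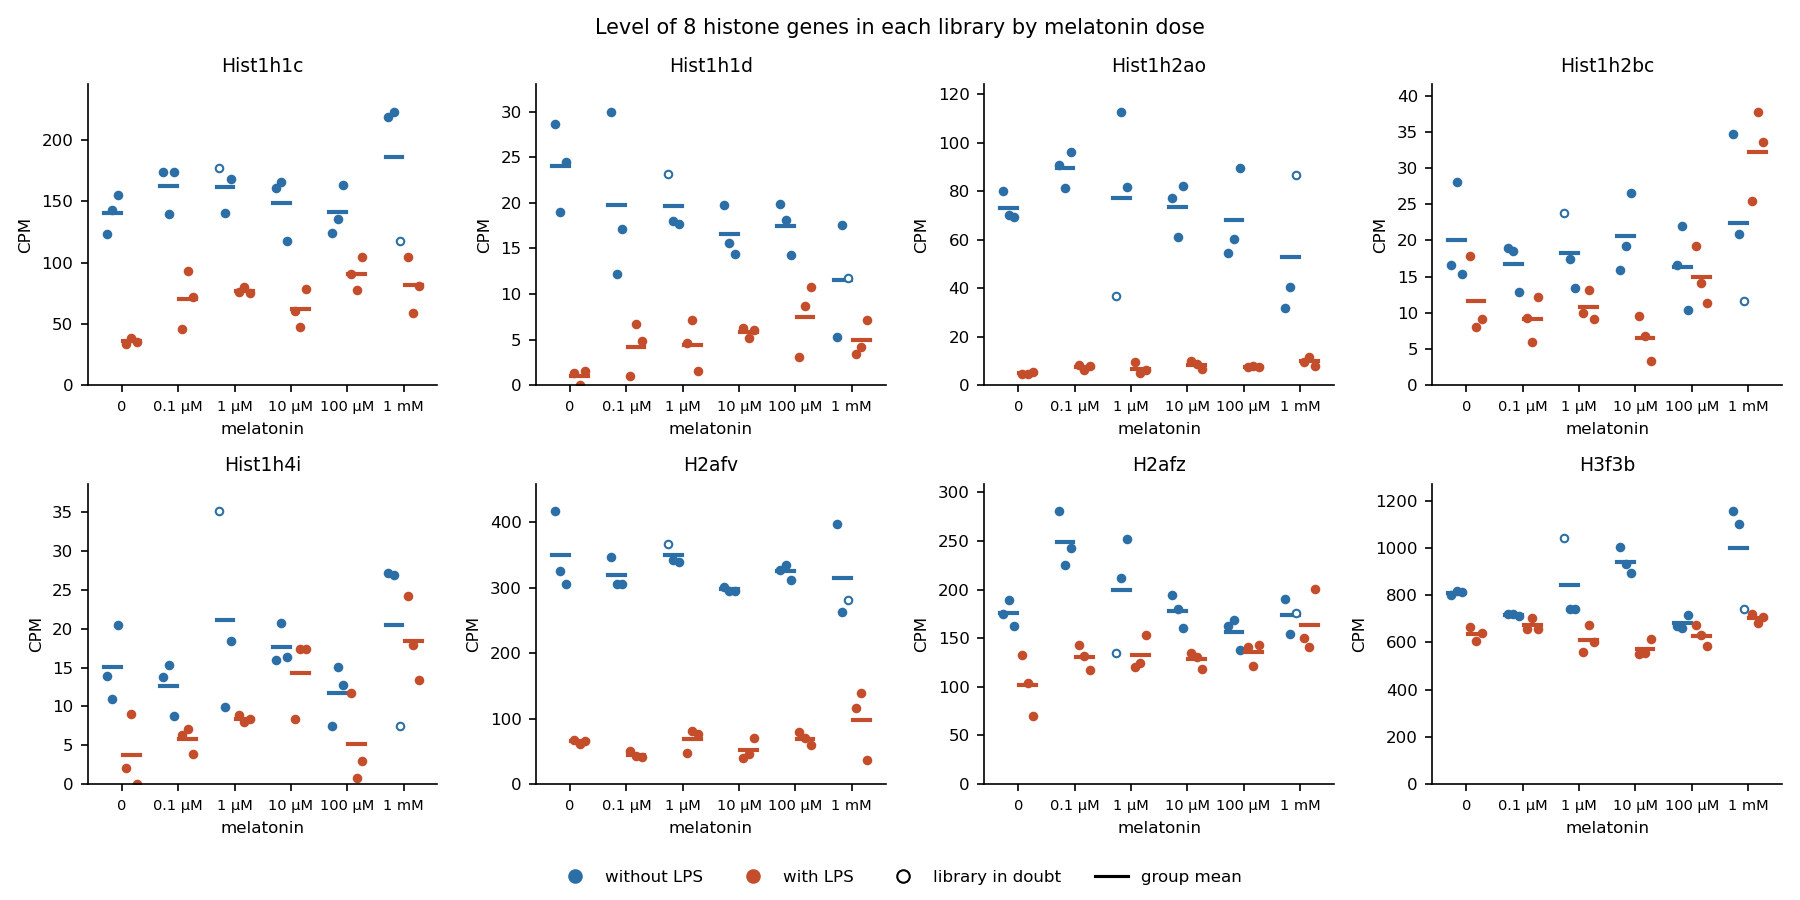
CPM (vertical axes, from 0) of 8 histone genes in each library by melatonin dose, without LPS (blue) and with LPS (red); lines are group means and open circles are the 2 libraries in doubt. Hist1h1c with LPS is higher at every melatonin dose than without melatonin, Hist1h2bc lies between 25.4 and 37.8 CPM at 1 mM with LPS, and H2afv stays between 36.9 and 140 CPM with LPS.

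A comparison that uses no LPS-only library is that of the highest with the lowest melatonin dose under LPS. Here 5 histone genes were higher at 1 mM than at 0.1 µM and 0 lower (2.83% of all genes were higher and 5.28% lower), with 11 higher and 3 lower at an unadjusted p under 0.05, and DESeq2 called 5 higher and 0 lower. H1f0 was at 103, 108 and 106 CPM against 55.0, 58.7 and 58.3 CPM (0.88 ± 0.16, adjusted p = 0.000189). Hist1h2bc was at 25.4, 37.8 and 33.7 CPM against 9.21, 6.02 and 12.2 CPM (1.82 ± 0.42, 0.00327). The libraries of both genes separate fully by dose. Hist1h1b (2.69 ± 0.67, 0.00618), Hist1h2ag and H2afv (1.13 ± 0.25, 0.00193) also rose. Hist1h2ag had 31 counts against 1, at 1.67 and 0.0542 CPM on average, so no fold is given. Fitted on the 2 groups alone, H2afv (0.105), Hist1h1b (0.185) and Hist1h2ag (0.143) did not pass. The call of Hist1h1b was also lost without replicate 2 (0.0507) or 3 (0.0502) of 0.1 µM, and that of H2afv without replicate 2 of 1 mM (0.0571).

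Whether the LPS response itself differs with 1 mM melatonin was tested as an interaction, (LPS with melatonin minus melatonin) minus (LPS minus solvent). A higher value was found for 2 histone genes and a lower one for 0 (0.63% of all genes were higher and 1.06% lower). At an unadjusted p under 0.05, 17 were higher and 0 lower, and DESeq2 called 2 higher and 0 lower. The shares of all genes belong to the adjusted edgeR counts and cannot be set against these. For Hist1h1d the LPS response was -4.62 without melatonin, where levels were 28.7, 19.0 and 24.5 CPM in solvent. With 1 mM melatonin alone levels were 5.26, 17.6 and 11.8 CPM, and with LPS added 3.37, 4.17 and 7.18 CPM. The difference between the responses was 3.38 ± 0.88 (adjusted p = 0.0319). For Hist1h2ab the fitted difference of 11.34 ± 3.01 (0.0453) comes from groups at or near 0: all 3 libraries of LPS and of melatonin alone had 0 counts, and LPS with 1 mM melatonin had 0, 0.431 and 0.399 CPM. No size can be read from it. Without the 2 libraries in doubt Hist1h2ao (2.03 ± 0.38, 0.000719) and Hist1h2ap (1.96 ± 0.44, 0.00611) passed and Hist1h2ab did not (0.0558). For Hist1h2ao and Hist1h2ap the removed library of melatonin alone lay above the others of its group, so these values depend on that removal. On the 4 groups alone, Hist1h1d did not pass (0.133), nor did it without solvent replicate 1 (0.0745) or 3 (0.0556), replicate 1 (0.0911) or 3 (0.0505) of melatonin alone, LPS replicate 2 (0.0998), or replicate 3 of LPS with melatonin (0.0898). The call of Hist1h2ab ended without solvent replicate 2 (0.148), without any replicate of LPS or of melatonin alone (0.0739 to 0.0901), and without replicate 2 (0.0771) or 3 (0.0597) of LPS with melatonin.

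The machinery around histone supply was examined through lists chosen for their function. Of 17 tested genes of histone messenger RNA transcription and 3′ end processing, 4 fell with LPS and 0 rose (of all genes, 8.09% fell and 8.4% rose), with a median log2 fold change of -0.40 (all genes -0.02). They were Slbp, the stem-loop binding protein (-2.07 ± 0.43, adjusted p = 0.000336), Casp8ap2, also called FLASH, a factor of histone pre-mRNA processing (-1.17 ± 0.25), Eri1, the exonuclease that trims and degrades histone messages (-0.91 ± 0.19), and Cstf2, a cleavage factor (-0.65 ± 0.22). Of 20 histone chaperone and nucleosome assembly genes, 9 fell and 1 rose (median -0.49). The 3 with the smallest adjusted p were Hjurp, the chaperone of the centromeric histone (-1.37 ± 0.15), Nap1l1 (-1.499 ± 0.19) and Atrx (-0.91 ± 0.13), the partner of Daxx in H3.3 deposition. Daxx itself rose (1.45 ± 0.23). The chaperones of newly made H3 and H4, Asf1b (-2.81 ± 0.47), Chaf1a (-1.89 ± 0.54), Chaf1b (-3.67 ± 0.87) and Nasp (-1.15 ± 0.24), also fell. Cstf2, Daxx and these 4 were named after their values were seen. Cenpa, the centromeric H3 variant outside the 75, fell by 1.71 ± 0.23.

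Cell cycle lists were counted in the same comparison, against the same 8.09% of all genes lower and 8.4% higher. Of 29 tested DNA replication genes, 24 fell and 0 rose with LPS (median -2.07, 25 at an unadjusted p under 0.05), led by Mcm6 (-2.86 ± 0.25), Mcm5 (-2.25 ± 0.26) and Rrm1 (-2.01 ± 0.25), which encode helicase subunits and a ribonucleotide reductase subunit. Of 14 G1/S regulators 11 fell and 1 rose, with Ccna2, cyclin A2 (-2.72 ± 0.21), E2f8 (-4.19 ± 0.41) and Rbl1 (-1.52 ± 0.23) at the smallest adjusted p, and Cdkn1a, the cell cycle inhibitor p21, higher (0.45 ± 0.12, named after its value was seen). As a share of solvent, the DNA replication genes summed to 31.1% with LPS, beside 18.7% for the replication-dependent histones and 55.6% for the variants.

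With 1 mM melatonin added to LPS, 7 of 29 DNA replication genes rose and 0 fell, among them Mcm6 (1.505 ± 0.24) and Mcm5 (0.98 ± 0.26), and the sum was 1.47 times that with LPS alone. Of the G1/S regulators 4 rose, E2f8 (1.97 ± 0.40) and Rbl1 (0.75 ± 0.23) among them, and 1 fell. Of all genes, 2.84% rose and 4.71% fell in this comparison. Of 17 processing genes 1 rose, Casp8ap2 (0.85 ± 0.25), and 0 fell. Of 20 chaperones 0 rose and 2 fell, Daxx (-1.12 ± 0.23) and Rbbp4 (-0.76 ± 0.22). In the same comparison 6 of 10 macrophage markers fell and 0 rose. These lists use the same LPS libraries as the histone values above, and the part of the cell cycle in the histone levels was not tested.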

How the data were processed

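Total RNA was extracted with Trizol and sequenced from Illumina TruSeq libraries, per the labels' protocols. The submitters' processing notes name cutadapt, featureCounts and mm10. Tool versions, aligner, annotation, strand setting, handling of multi-mapped reads and poly(A) selection are not given in the sources used here. The authors' deposited table holds raw counts of 53465 genes in 36 libraries, per the file headers and values. A second deposited table gives the authors' FPKM values, symbols and biotypes, per the file headers. FPKM served only to compare levels between genes.

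Counts were tested with edgeR 4.0.16 (R 4.3.3, limma 3.58.1): filterByExpr on the 12 groups kept 16988 genes, TMM factors ran from 0.914 to 1.194, and 1 quasi-likelihood model was fitted to all 36 libraries (common dispersion 0.266). P-values (two-sided) were adjusted over all genes tested by the Benjamini-Hochberg method, per comparison, with a threshold of 0.05. CPM used TMM-scaled library sizes. Where a group had 0 counts, folds are bounds against 3 counts over the group, and with 1 to 3 counts only levels are given. Replicate numbers did not pair the libraries: same-numbered libraries did not deviate together (correlations from -0.0409 to 0.0283). Pairs of replicates differed by more than sampling noise (chi-square between 8.95 and 37.7 per degree of freedom). The procedure was tested on simulated data for LPS against solvent only, with changes placed in well-counted genes. Recovery of changes in genes with few counts was not tested.

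The genes and lists were chosen with earlier results of these data known. Genes given per library were the 8 variants, the replication-dependent gene of each class with the highest mean CPM, and up to 4 rises and 4 falls per main comparison among non-overlapping calls. From each other list up to 3 genes with the smallest adjusted p were named. Others were named after their values were seen. Alternatives were RLE scaling, no filter or a stricter filter on low counts, a replicate block, DESeq2 1.42.0, fits on the compared groups only, fits without 2 libraries in doubt, and removal of each library.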

Additional observations from a re-analysis of the deposited data

Results flagged for a closer look

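The difference between the LPS response with and without 1 mM melatonin passed the test of the difference itself in 2 histone genes. For Hist1h1d it was 3.38 on the log2 scale (adjusted p = 0.0319), and for Hist1h2ab 11.34 (adjusted p = 0.0453), from an interaction term in the edgeR model. Hist1h2ab had 0 counts in all libraries of LPS and of 1 mM melatonin and at most 0.431 CPM in LPS with 1 mM melatonin, so its value has no readable size. Removing any 1 of several libraries ended each call, and between 0 and 2 histone genes passed when 1 library was left out. Groups of 3 were too small for a test of single outlying libraries. Replicate 3 of LPS with 1 mM melatonin, which enters this term, differed most from its own group.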

How the results depend on the processing

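Of 240 recounts of called histone genes, 204 stayed within 1.5 times the reported count. A recount of 0 where 0 was reported is among these, as in most recounts for melatonin alone, so the figure overstates how well calls held. Calls kept under every alternative were 13 of 18 for LPS against solvent, 1 of 5 for LPS with 1 mM melatonin against LPS and 0 of 2 for the interaction. Of 797 values for named genes, 716 kept direction and side of the threshold, 22 passed newly, 47 no longer passed and 12 changed sign. The cause of these changes was not tested.

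For LPS against solvent the count ran from 14 to 17 when 1 library was left out. For the LPS response it ran from 14 to 16 at 0.1 µM, 11 to 16 at 1 µM, 12 to 15 at 10 µM, 9 to 14 at 100 µM and 10 to 11 at 1 mM. For 1 mM melatonin against solvent it was 1 without a filter, 2 without the libraries in doubt, and 0 to 1 with 1 library left out. For 0.1 µM melatonin it was 1 on the compared groups alone. For LPS with 1 mM melatonin against LPS it was 9 without a filter, 8 without the libraries in doubt, 2 on the compared groups alone and 2 to 4 with 1 library left out. At 100 µM it was 1 on the compared groups and 1 to 2 with 1 library left out. At 10 µM it was 3 without a filter, 1 without the libraries in doubt, 1 with DESeq2 and 0 to 1 with 1 library left out. At 1 µM and 0.1 µM DESeq2 gave 2 each, and leaving out 1 library gave 1 to 1 and 0 to 1. For 1 mM against 0.1 µM under LPS it was 3 on the compared groups and 4 to 5 with 1 library left out. For the interaction it was 6 without a filter, 0 on the compared groups and 0 to 2 with 1 library left out.

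The replicate numbers did not pair the libraries, and a block for the replicate number brought the interaction count to 1, where Hist1h2ab no longer passed (adjusted p = 0.0753). The block left the other counts within 1.5 times. Under it Hist1h2ag in the LPS response at 1 mM did not pass (0.0551), and H3f3a in 1 mM melatonin against solvent changed sign under it (0.0307).

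The other sign changes came from leaving out 1 library, in genes that did not pass in the full fit. Over these removals, H3f3a ran from -0.73 to 0.0047 in LPS against solvent. In LPS with 1 mM melatonin against LPS, H2afx ran from -0.0385 to 0.52, H2afy from -0.0617 to 0.0158, H3f3a from -0.0044 to 0.83 and Hist1h3c from -0.30 to 6.65. In 1 mM melatonin against solvent, H1f0 ran from -0.0437 to 0.29, H2afz from -0.0901 to 0.0587, H3f3a from -0.71 to 0.20 and Hist1h2bc from -0.30 to 0.48. Where an arm was left with 2 libraries the shared spread was used. Depth limits the low members: 19 tested replication-dependent genes averaged under 1 CPM.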
